A study of Mus musculus with 8 samples.

Results

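Whole mouse kidneys at embryonic day 14.5 hold circulating blood, and 9 genes of the red cell lineage were followed in them: the globin genes Hba-a1, Hba-x, Hbb-y and Hbb-bh1, the haem synthesis gene Alas2, the transcription factor genes Klf1 and Gata1, the erythropoietin receptor gene Epor and the globin chaperone gene Ahsp. Members were found through the RefSeq accession of each non-control probe, which gave 11 of 56605 probes and 8 of the 22911 genes named on the array. Ahsp has no entry in the annotation table used here, so no probe was assigned to it and it was not analysed here. All 8 genes with a probe passed the filter on dim probes and were among the 16013 genes tested.

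The mutant kidneys carried a Hoxb7Cre transgene that removes Mdm4, which encodes an inhibitor of p53, and the others were wild type. Hoxb7Cre is active in the ureteric bud and its collecting duct descendants, not in blood cells. The labels number 4 pairs of a mutant and a wild-type RNA, counted here as 4 mutant and 4 wild-type RNAs. Each pair was hybridised on 2 arrays with the Cy3 and Cy5 dyes exchanged, so that n = 4 pairs. Strain, the number of embryos per RNA and the meaning of a pair beyond its shared arrays are not given in the labels, so p-values reflect only how far these pairs spread, some of which may be technical. In whole-organ RNA, fewer red cells and less RNA per red cell cannot be told apart.

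Red cells of the mouse embryo come in 2 waves. Primitive red cells arise in the yolk sac and use the embryonic chains, the alpha-like zeta chain of Hba-x and the beta-like chains of Hbb-y and Hbb-bh1. Definitive red cells arise in the fetal liver and use the adult chains, the alpha chain of Hba-a1 and its near-identical copy Hba-a2 and the adult beta chains. The adult chains are called definitive below as a name only, since primitive red cells may hold them too. GATA1 and KLF1 switch on globin and haem genes in both waves, and KLF1 binds CACCC boxes.

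RefSeq promoters (GRCm38.p6, 250 bases before to 50 after the start) were on hand for 7 of the 9 genes. Those of 2 embryonic chains, whose levels varied together, and of the definitive chain Hba-a1 are shown to set their elements side by side. The ratios of Hba-a1 differed from theirs in sign on both arrays of pair 2. In pair 4 the means over both arrays differed in sign, but there the sign of Hba-a1 turned with the dye. Capitals mark the 4 motifs searched on both strands. The first was GATAA, whose opposite strand reads TTATC. The next was CACCC, whose opposite strand reads GGGTG. The third was CCAAT, whose opposite strand reads ATTGG. The last was TATAA, whose opposite strand reads TTATA.
Hba-x, chr11:32276350-32276649, plus strand: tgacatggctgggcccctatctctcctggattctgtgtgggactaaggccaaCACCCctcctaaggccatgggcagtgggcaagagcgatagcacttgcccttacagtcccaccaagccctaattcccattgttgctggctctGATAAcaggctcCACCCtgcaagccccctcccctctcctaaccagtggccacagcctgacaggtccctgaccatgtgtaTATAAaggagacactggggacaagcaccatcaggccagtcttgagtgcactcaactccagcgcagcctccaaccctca
Hbb-y, chr7:103853158-103853457, minus strand: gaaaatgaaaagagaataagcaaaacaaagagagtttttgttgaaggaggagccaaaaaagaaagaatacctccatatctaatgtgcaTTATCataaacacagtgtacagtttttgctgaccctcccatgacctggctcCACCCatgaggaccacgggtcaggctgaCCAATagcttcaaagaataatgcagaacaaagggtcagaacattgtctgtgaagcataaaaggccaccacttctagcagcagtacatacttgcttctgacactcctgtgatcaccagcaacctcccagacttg
Hba-a1, chr11:32283422-32283721, plus strand: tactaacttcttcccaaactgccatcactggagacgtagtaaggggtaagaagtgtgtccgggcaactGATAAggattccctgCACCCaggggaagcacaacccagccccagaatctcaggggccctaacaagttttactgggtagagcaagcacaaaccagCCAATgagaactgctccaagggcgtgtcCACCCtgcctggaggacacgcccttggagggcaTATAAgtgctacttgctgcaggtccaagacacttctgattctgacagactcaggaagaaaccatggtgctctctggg

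Each of these 3 promoters held 1 GATAA and at least 1 CACCC. In Hba-x they lay 107 and 95 bases before the start, in Hbb-y 162 and 111 bases before it, and in Hba-a1 182 and 167 bases before it. Hba-x and Hba-a1 also had a second CACCC, at 198 and 60 bases before the start. Hba-a1 and Hbb-y had CCAAT, at 88 and 83 bases before the start, and Hba-a1 and Hba-x had TATAA, at 27 and 28 bases before it. Of the 7 promoters, 6 held GATAA and 7 held CACCC, 3 held CCAAT and 3 held TATAA. Among 32851 promoters of the same length, 25.4% held GATAA, 57.5% CACCC, 37.4% CCAAT and 24.9% TATAA. No marked motifs overlapped in the 3 promoters shown, and these matches describe the sequence only.

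The array data are 2-colour intensities. Levels below are log2 normalised intensities averaged over both arrays of an RNA, and ratios are log2 of mutant over wild type within a pair, where 0 means equal. A level is compared between RNAs only, since probes differ in how brightly they bind. Per channel, 60.7% to 70.2% of non-control spots exceeded background clearly, and 0 spots were saturated. The list of 12 kidney markers, among them Six2, Wt1 and Pax2, was above background in full. The labelled pairs were not matched for sex, with a mean ratio of Y-linked transcripts of 2.76, 1.31, -1.64 and 2.83 in pairs 1 to 4. The mutant RNAs of pairs 2 and 3 were alike in genes where the others differed. Xist, the transcript of the inactive X chromosome, was at 9.57 and 9.46 in them, against 6.97 and 7.44 in pairs 1 and 4. Afp, a fetal liver gene, was at 9.95 and 9.93, against 11.60 and 11.22, though Hbb-y was at 17.21 and 16.97. Whether these are separate RNAs is not given in the labels and was not tested. If not, n = 4 overstates the number of mutant RNAs.

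Setting mutant beside wild-type RNAs asks whether red cell transcripts in the kidney differ once the ureteric epithelium lacks Mdm4. No red cell gene passed the test. Mean ratios lay between -0.11 and 0.04 (n = 4 pairs), and those of 6 genes moved above 0 when arrays were centred on their median, a scaling that also moved the median of all genes by over 0.1, to 0.14. In limma's test 0 of 8 genes had an adjusted p under 0.05, the share over all genes being 0%, and their adjusted p ran from 0.561 to 0.985. At an unadjusted p under 0.05 the count was again 0 of 8, against 10.6% of all genes. None of the 8 genes had the same sign in all 4 pairs, against 19.9% of all genes (12.1% higher in every pair and 7.84% lower), and mutant and wild-type levels overlapped for all 8, where 4.82% of all genes did not overlap. The median of the 8 ratios was -0.03, beside 0.01 over all genes.

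**Figure D1:**
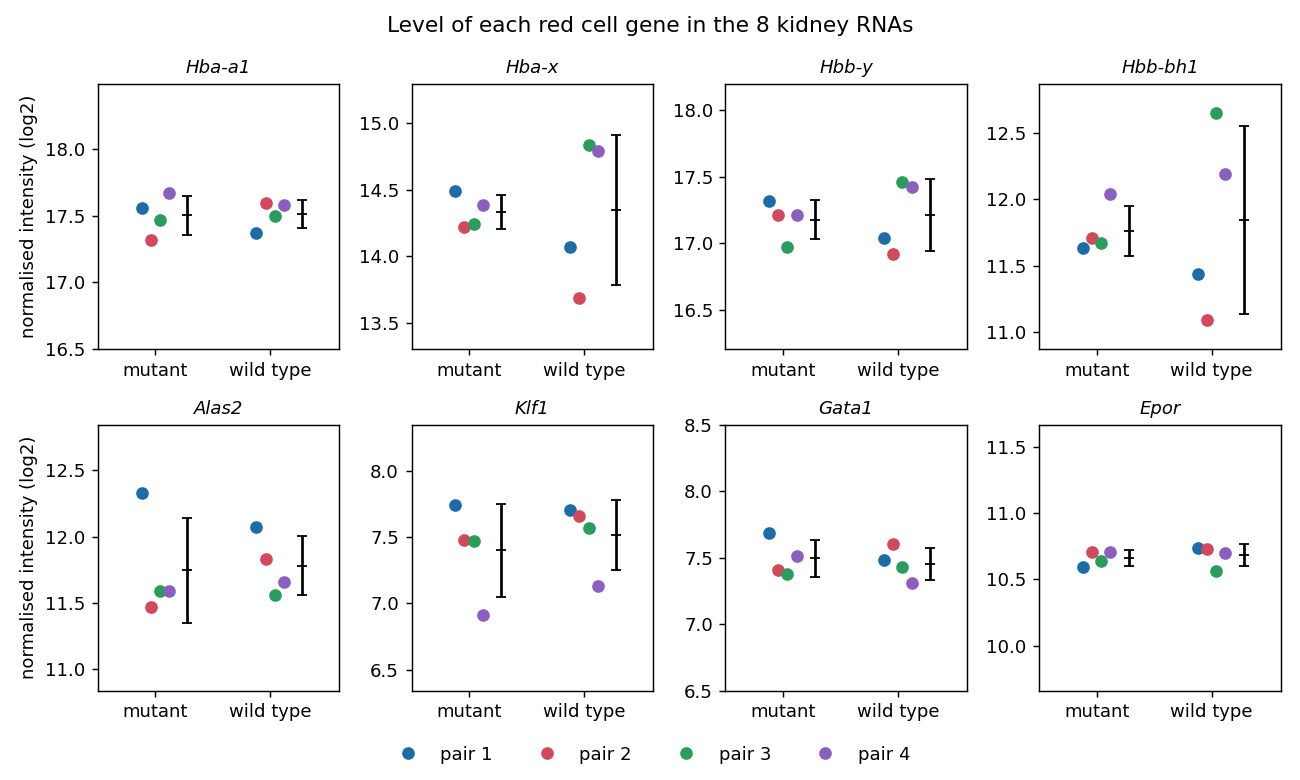
Level of each red cell gene (log2 normalised intensity, mean of both arrays of an RNA) in the 4 mutant and 4 wild-type RNAs, coloured by pair, with mean ± SD in black. Each panel spans 2 log2 units. The groups overlap for all 8 genes, and the wild-type RNAs of Hba-x and Hbb-bh1 spread more widely than the mutant ones.

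Among the 8 genes, the ratios of the embryonic chains varied most between pairs, with an SD of 0.58 for Hba-x, 0.38 for Hbb-y and 0.67 for Hbb-bh1. The adult beta gene Hbb-b1, read below, had an SD of 0.57. Hba-x, the zeta chain gene of primitive red cells, had levels of 14.49, 14.22, 14.24 and 14.39 in the mutant RNAs of pairs 1 to 4, against 14.07, 13.69, 14.84 and 14.79 in the wild-type RNAs. The mutant values all lay inside the wild-type range, whose lowest value came from pair 2 and highest from pair 3. The ratios were 0.42, 0.53, -0.61 and -0.40, with a mean of -0.01 ± 0.21 (SE, n = 4, limma adjusted p = 0.985). The 95% interval of the fold ran from 0.700 to 1.40.

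Hbb-y, which encodes the epsilon-y chain, had levels of 17.32, 17.21, 16.97 and 17.21 in mutant RNAs, against 17.04, 16.92, 17.46 and 17.42 in wild-type RNAs. The wild-type RNAs of pairs 3 and 4 were again the highest, and those of pairs 1 and 2 lay below at least 3 of the 4 mutant RNAs. Its ratios were 0.28, 0.29, -0.49 and -0.21 (mean -0.03 ± 0.14, SE, n = 4, limma adjusted p = 0.946).

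Hbb-bh1, the beta-like gene used earliest in primitive red cells, had levels of 11.63, 11.71, 11.67 and 12.04 in mutant RNAs, against 11.44, 11.09, 12.65 and 12.19 in wild-type RNAs. The same wild-type RNAs stood high and low. Its ratios of 0.19, 0.62, -0.98 and -0.15 gave a mean of -0.08 ± 0.24 (SE, n = 4, limma adjusted p = 0.918), with a 95% interval of the fold from 0.632 to 1.42. That interval was the widest of the 8 genes.

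All 3 embryonic chains were thus above 0 in pairs 1 and 2 and below 0 in pairs 3 and 4, with a mean over the chains of 0.30, 0.48, -0.69 and -0.25. With median centring these means were 0.35, 0.64, -0.28 and -0.20. The turn of sign lay mostly in the wild-type RNAs, whose SD was 0.56 for Hba-x, 0.27 for Hbb-y and 0.70 for Hbb-bh1. The SD over mutant RNAs was 0.13, 0.15 and 0.19. Those of pairs 2 and 3 were at 14.22 and 14.24 for Hba-x, 17.21 and 16.97 for Hbb-y, and 11.71 and 11.67 for Hbb-bh1. If these are not separate RNAs, the mutant SD rests on fewer than 4 RNAs. The difference in spread was seen in the data first and was not tested.

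Levels of the embryonic chains ran together over the 8 RNAs. For Hba-x and Hbb-y, Pearson's r was 0.92 (two-sided exact permutation p = 0.000992, adjusted p = 0.0274 over the 28 pairs of red cell genes), and Spearman's rho was 0.93 (exact permutation p = 0.00223, adjusted p = 0.0625). For Hba-x and Hbb-bh1, r was 0.92 (exact permutation p = 0.00196, adjusted p = 0.0274) and rho 0.83 (p = 0.0154, adjusted p = 0.152). For Hbb-y and Hbb-bh1, r was 0.84 (exact permutation p = 0.00813, adjusted p = 0.0759) and rho 0.81 (p = 0.0218, adjusted p = 0.152). So 2 of the 28 pairs passed by r and 0 passed by rho. Without the 2 RNAs farthest from the median of the first gene, r was 0.86, 0.80 and 0.81, and without those farthest in the second gene 0.97, 0.80 and 0.65. In the orientation with mutant RNA in Cy5, r was 0.82, 0.91 and 0.84, and in the opposite one it was 0.66, 0.83 and 0.57. Each mutant RNA shared its arrays with the wild-type RNA of its pair, and all arrays were on 1 slide. The mutant RNAs of pairs 2 and 3 were also alike in genes such as Xist and Afp. The 8 RNAs are therefore not fully independent measurements.

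Xist was at 9.68, 9.80, 6.98 and 10.24 in the wild-type RNAs of pairs 1 to 4, of which those of pairs 3 and 4 had the highest Hba-x and Hbb-y. Its relation to the embryonic chains was not tested.

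**Figure D2:**
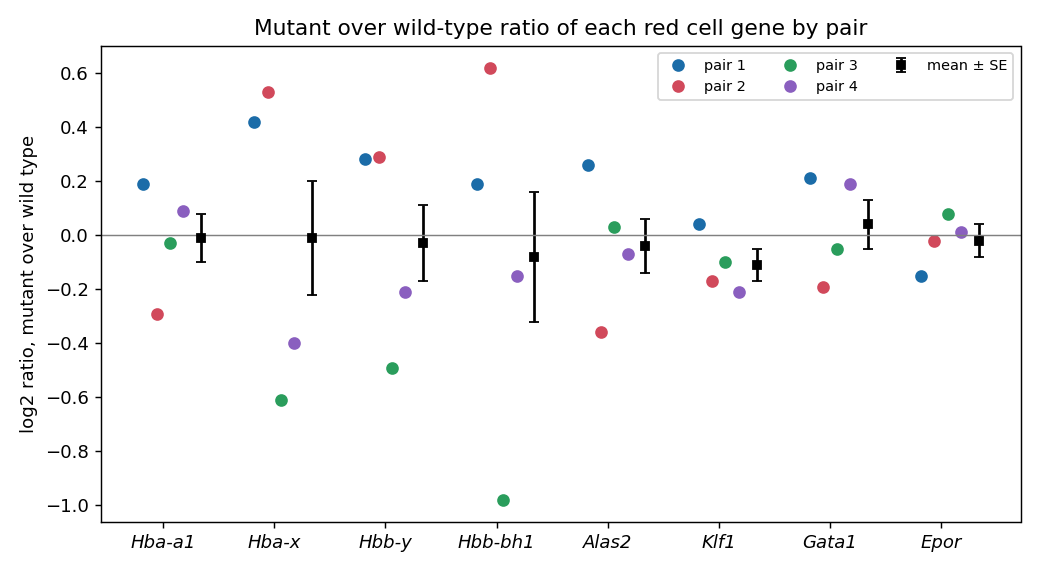
Log2 ratio of mutant over wild type for each red cell gene, with 1 point per pair and the mean ± SE of the fit (square). The embryonic chains Hba-x, Hbb-y and Hbb-bh1 lie above 0 in pairs 1 and 2 and below 0 in pairs 3 and 4, and all 8 means lie between -0.11 and 0.04.

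The definitive chain followed another order. Hba-a1, the alpha chain gene, had levels of 17.56, 17.32, 17.47 and 17.67 in mutant RNAs, against 17.37, 17.60, 17.50 and 17.58 in wild-type RNAs. The groups overlapped closely, with the lowest and the highest value both in mutant RNAs. The ratios were 0.19, -0.29, -0.03 and 0.09 (mean -0.01 ± 0.09, SE, n = 4, limma adjusted p = 0.976), and the 95% interval of the fold ran from 0.857 to 1.15.

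Hba-a1 is 1 of the brightest signals on the array, at rank 24 of 16013 genes, and 20 spots measured it, 10 for each of its 2 probes. Within an array the spots of a probe differed by an SD of 0.01 to 0.05. Its second probe gave 0.33, -0.13, 0.11 and 0.17 in pairs 1 to 4, higher than the first by 0.14, 0.16, 0.14 and 0.09. The probes thus kept the same order of pairs with an offset of similar size. Ratios of the first probe also depended on the dye, averaging 0.13 where Cy5 marked the mutant RNA and -0.15 where Cy3 did. In pairs 3 and 4 their sign turned with it. They were 0.09 and 0.29 with mutant RNA in Cy5, and -0.16 and -0.11 with it in Cy3. Hba-a1 and Hba-a2 are too alike for their probes to be told apart with certainty.

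Of the 8 other globin genes listed, 6 were tested and 0 had an unadjusted p under 0.05. The near-identical alpha gene Hba-a2 gave 0.24, -0.31, -0.04 and 0.09, and the adult beta gene Hbb-bt 0.20, -0.26, 0.08 and 0.03. Hbb-b2 gave 0.33, -0.40, 0.00 and -0.02. These adult genes repeated the order of Hba-a1, high in pair 1 and low in pair 2.

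Hbb-b1, an adult beta gene, gave 0.43, -0.62, -0.13 and -0.87 and differed between the dyes, at -0.74 with mutant RNA in Cy5 and 0.15 with it in Cy3. Hbb-b1 and Hbb-b2 belong to another mouse haplotype than Hbb-bt, and the strain of these kidneys is not given, so signals on these near copies are uncertain. The theta-like genes Hbq1a and Hbq1b were at 0.12 ± 0.05 and 0.04 ± 0.05 (SE, n = 4, limma adjusted p = 0.492 and 0.805). Hbq1a was above 0 in all 4 pairs, as were 12.1% of all genes.

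**Figure D3:**
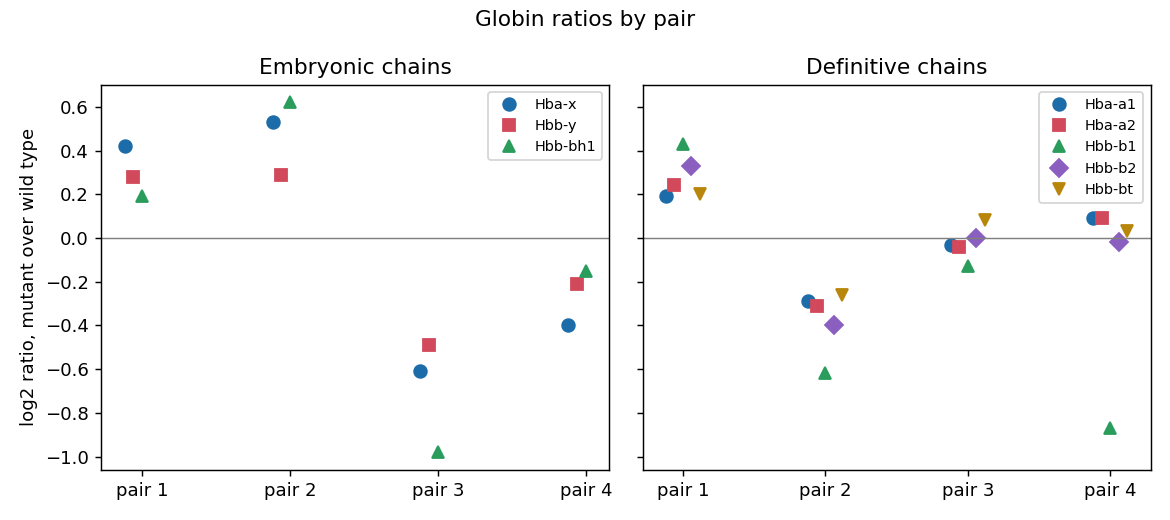
Log2 ratio of mutant over wild type by pair for 3 embryonic and 5 definitive globin genes. In pair 2 the embryonic chains are above 0 and the definitive ones below it, and in pair 1 both are above 0.

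The mean over the 5 definitive genes was 0.28, -0.37, -0.02 and -0.14 in pairs 1 to 4, beside 0.30, 0.48, -0.69 and -0.25 for the embryonic chains. Its value in pair 4 took its sign from Hbb-b1, which there gave -2.05 with mutant RNA in Cy5 and 0.31 with it in Cy3, while the other 4 genes lay between -0.02 and 0.09. With median centring the definitive mean of pair 3 was 0.42, beside a median of 0.31 over all genes. The ratio of Hba-a1 minus the mean of the embryonic chains was -0.10, -0.76, 0.66 and 0.34, with a mean of 0.03 and an SD of 0.62 (n = 4). The balance between chains therefore shifted from pair to pair and had no common direction. Over the 8 RNAs, r between Hba-a1 and the embryonic chains was 0.14 to 0.15 (exact permutation p from 0.711 to 0.740). That value depended on few RNAs. Without the 2 RNAs farthest from the median of Hba-a1, r was -0.24 with Hba-x, 0.00 with Hbb-y and -0.19 with Hbb-bh1, and without the 2 farthest in the embryonic gene it was 0.68, 0.46 and 0.68.

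Alas2, on chromosome X, encodes the erythroid enzyme that starts haem synthesis. Its levels were 12.33, 11.47, 11.59 and 11.59 in mutant RNAs, against 12.07, 11.83, 11.56 and 11.66 in wild-type RNAs. The RNAs of pair 1 were the highest of each genotype, and the groups overlapped. The ratios of 0.26, -0.36, 0.03 and -0.07 had the order of the definitive globins in pairs 1 and 2, with a mean of -0.04 ± 0.10 (SE, n = 4, limma adjusted p = 0.915). The mean ratio was -0.18 with mutant RNA in Cy5 and 0.11 with it in Cy3.

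Gata1, on chromosome X, encodes the zinc finger factor needed for red cell maturation. It had levels of 7.69, 7.41, 7.38 and 7.51 in mutant RNAs, against 7.48, 7.60, 7.43 and 7.31 in wild-type RNAs, and the ranges overlapped. Its ratios were 0.21, -0.19, -0.05 and 0.19 (mean 0.04 ± 0.09, SE, n = 4, limma adjusted p = 0.876). Over the RNAs its r with Alas2 was 0.74 (exact permutation p = 0.0346, adjusted p = 0.243) and rho 0.50 (p = 0.216), and r was 0.57 without the 2 RNAs farthest from the median of Alas2 and 0.31 without those farthest in Gata1. That relation did not pass.

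Klf1, the CACCC-binding activator of adult beta globin, had levels of 7.74, 7.48, 7.47 and 6.91 in mutant RNAs, against 7.70, 7.66, 7.57 and 7.13 in wild-type RNAs. Both RNAs of pair 4 were the lowest of their genotype. The ratios were 0.04, -0.17, -0.10 and -0.21 (mean -0.11 ± 0.06, SE, n = 4, limma adjusted p = 0.561), the smallest p of the 8 genes. The second Klf1 probe gave 0.24, -0.08, 0.27 and 0.06, a mean of 0.12, so the 2 probes disagreed in sign. The mean ratio of Klf1 was -0.31 in the deposited series table and -0.30 from Agilent's processed signals, and that of Gata1 was 0.13 and 0.12 (n = 4, limma adjusted p from 0.552 to 0.781). Gata1 and Klf1 were dim, at percentiles 13.0 and 12.9 of brightness among the genes tested.

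Epor, the receptor through which erythropoietin keeps red cell precursors alive, had levels of 10.59, 10.71, 10.64 and 10.71 in mutant RNAs, against 10.74, 10.73, 10.56 and 10.70 in wild-type RNAs. These were the narrowest ranges of the 8 genes, 0.12 and 0.17. The ratios were -0.15, -0.02, 0.08 and 0.01 (mean -0.02 ± 0.06, SE, n = 4, limma adjusted p = 0.912), with a 95% interval of the fold from 0.890 to 1.09. The second Epor probe gave 0.02, -0.14, 0.02 and -0.30.

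**Figure D4:**
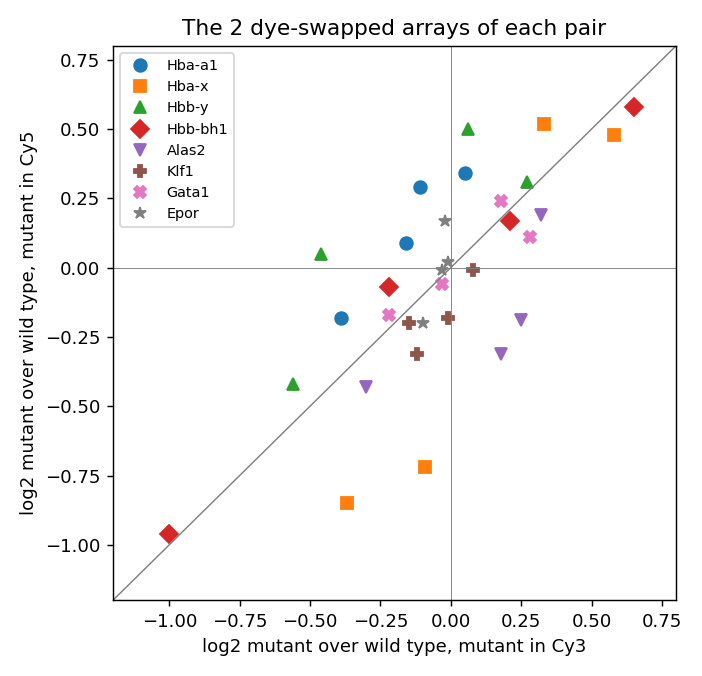
Log2 ratio of mutant over wild type on the array with mutant RNA in Cy5 against that on the array with it in Cy3, for each red cell gene and pair, with the line of equality. Hbb-bh1 lies near the line in all 4 pairs, whereas Hba-a1 and Hbb-y lie above it and Hba-x in pairs 3 and 4 lies below it.

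The exchanged dyes showed which ratios held on both arrays. Hbb-bh1 gave 0.17, 0.58, -0.96 and -0.07 with mutant RNA in Cy5, and 0.21, 0.65, -1.0 and -0.22 with it in Cy3. Hba-x gave 0.52, 0.48, -0.85 and -0.72 with mutant RNA in Cy5, and 0.33, 0.58, -0.37 and -0.09 with it in Cy3. Both genes kept the sign of each pair in both orientations, as did Gata1. Hbb-y did so except in pair 4, where it was at 0.05 with mutant RNA in Cy5 and -0.46 with it in Cy3. The ratios of Hba-a1, Alas2 and Epor turned sign with the dye in pairs 3 and 4, and that of Klf1 in pair 1.

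The 8 red cell genes did not vary as a single group. Over the 8 RNAs, r between each gene and the mean standardised level of the others ran from -0.69 for Epor to 0.38 for Hbb-y. By likeness to the mean of all 8, Hbb-y ranked 235 of 16013 genes. That rank is raised because this mean includes Hbb-y itself. The named genes most like that mean were Npr1 (r = 0.956), Specc1l (0.936), Pou2f2 (0.930), Jund (0.929), Dact1 (0.928) and Gpr27 (0.925), over 8 RNAs. As a description chosen after these values were seen, the genes outside the globins most like the mean of the 5 definitive globins were Usp35 (r = 0.914), Kifc5b (0.909), Prdm2 (0.886) and Slc4a1, the red cell anion exchanger gene (0.869, rank 5 of 16013). Other red cell genes stood at both ends of that order, with the blood group gene Rhd at 0.758 and the membrane skeleton gene Add2 at -0.827, rank 15999. Outside the chains themselves, the genes most like the mean of the embryonic chains were Sema4g (0.971), Izumo4 (0.958) and Slc25a22 (0.954). So high an r is reached by some of many genes over so few points.

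Further genes of the lineage were read from lists, beside shares of all genes of 7.01% higher and 3.60% lower at an unadjusted p under 0.05. No gene of any list passed when adjusted over all genes. Of 20 red cell membrane genes 15 were tested, 1 was higher at that p and 0 lower, with a median of 0.04. That gene was Gypc, a glycophorin gene, with levels of 13.47, 13.50, 13.45 and 13.34 in mutant RNAs, against 13.33, 13.24, 13.23 and 13.13 in wild-type RNAs. The groups did not overlap, as was so for 4.82% of all genes. The ratio was 0.21 ± 0.05 (SE, n = 4, limma adjusted p = 0.397), above 0 in all 4 pairs, as were 12.1% of all genes. Gypc is also expressed outside red cells. Ermap was at -0.23 ± 0.09, Tmod1 at 0.13 ± 0.08 and the blood group gene Kel at 0.06 ± 0.05.

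Slc4a1 gave 0.29, -0.27, 0.08 and -0.08, and Rhd 0.36, -0.31, 0.24 and 0.06. Both had pair 1 high and pair 2 low, but Add2 of the same list had the opposite order, at -0.36, 0.47, 0.01 and 0.04. These 3 genes were picked for their likeness or unlikeness to the definitive globins. In pair 2, 4 of the 15 membrane genes were above 0, against 9, 13 and 10 in pairs 1, 3 and 4, where 49.2% of all genes were above 0 in pair 2 and 46.5%, 60.7% and 54.5% in the others.

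Of 19 genes of haem synthesis and turnover, all tested, 1 was higher at the unadjusted threshold and 0 lower, with a median of 0.00. It was Blvrb, which encodes a biliverdin reductase (0.21 ± 0.09). The mitochondrial iron importer gene Slc25a37 was at -0.17 ± 0.09, and Cpox and Ppox, which encode late enzymes of the pathway, at -0.09 ± 0.06 and -0.14 ± 0.13. Of 19 erythroid transcription factor genes, all tested, 0 were higher and 0 lower at that threshold, with a median of 0.05. Lmo2, a partner of GATA1 in its complex, was at 0.13 ± 0.07, Nfe2 at 0.16 ± 0.10, Foxo3 at -0.18 ± 0.11 and Runx1 at 0.21 ± 0.14.

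Of 20 genes of erythropoietin signalling and iron uptake 19 were tested, 2 were higher and 1 lower at the unadjusted threshold, with a median of 0.07. The hormone gene Epo itself did not pass the filter on dim probes. Stat5a, which encodes a transcription factor downstream of the receptor, gave -0.08, -0.29, -0.24 and -0.62 (-0.31 ± 0.09, SE, n = 4, limma adjusted p = 0.424). It was below 0 in all 4 pairs, as were 7.84% of all genes. The signalling inhibitor gene Socs1 was at 0.20 ± 0.06, the iron regulator gene Ireb2 at 0.20 ± 0.08 and the transferrin receptor gene Tfrc at -0.13 ± 0.06. Of 15 red cell enzyme and maturation genes 13 were tested, 1 was higher and 0 lower, with a median of 0.05. The carbonic anhydrase gene Car2 was at 0.27 ± 0.08, but it is a gene of the collecting duct too. Acp5 was at 0.19 ± 0.10, the mitophagy receptor gene Bnip3l at 0.10 ± 0.05 and the peroxiredoxin gene Prdx2 at 0.09 ± 0.06.

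**Figure D5:**
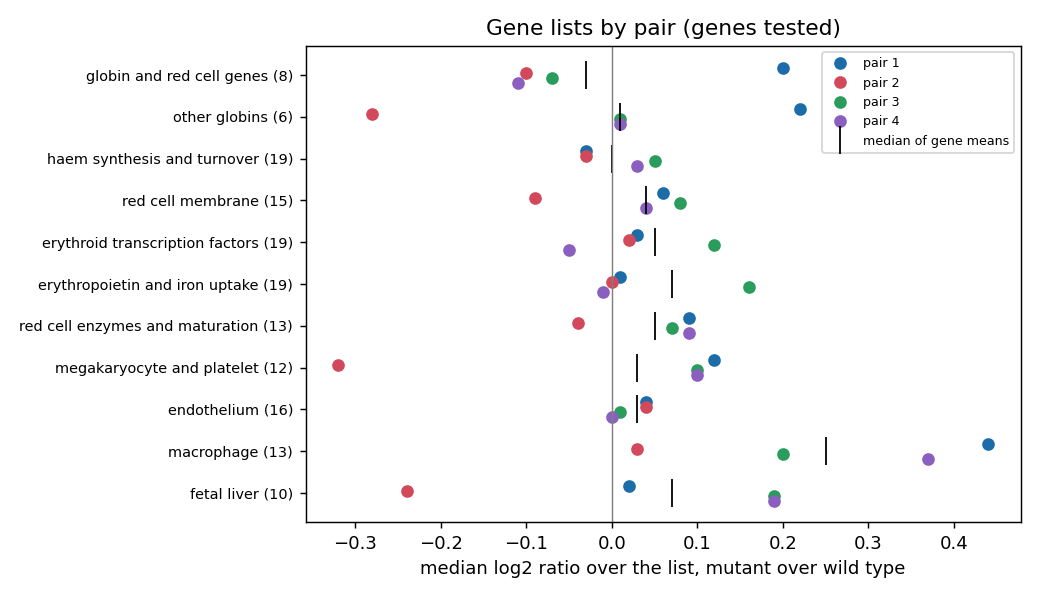
Median log2 ratio of mutant over wild type over each gene list, by pair (points), and the median of the genes' mean ratios (black bars), with the number of genes tested. Medians of pair 2 lie at -0.28 for the other globins and -0.32 for platelet genes, and the macrophage median is above 0 in all 4 pairs, at 0.03 in pair 2.

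Lists of other cell types varied by pair as follows, and their part in the red cell values was not tested. Of 15 megakaryocyte and platelet genes 12 were tested, 0 were higher and 0 lower at the unadjusted threshold, and their medians by pair were 0.12, -0.32, 0.10 and 0.10. Nbeal2 was at -0.13 ± 0.06, and the integrin genes Itgb3 and Itga2b at 0.19 ± 0.09 and -0.14 ± 0.09. Of 15 fetal liver genes 10 were tested, 1 was higher and 0 lower, with medians of 0.02, -0.24, 0.19 and 0.19. Its mean level ranged from 8.80 to 9.44 over mutant RNAs and from 8.43 to 9.46 over wild-type RNAs, and Apoa1, Apob, F2, Hamp and Ttr did not pass the filter on dim probes.

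Afp, the fetal liver's alpha-fetoprotein gene, gave 0.54, -0.71, 1.08 and 2.04, and Trf, the transferrin gene, was at 0.30 ± 0.11. Fgg was at 0.15 ± 0.10 and Hnf4a, which the kidney also expresses, at 0.25 ± 0.18. By ratio, the liver and platelet lists were thus low in pair 2, as the definitive globins were, but the liver list was not highest in pair 1. By level, the liver list was highest in pair 1 in both genotypes, at 9.44 in the mutant and 9.46 in the wild-type RNA.

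All 16 endothelium genes were tested, with a median of 0.03. Sox18 was higher (0.20 ± 0.06) and Esam lower (-0.19 ± 0.08) at the unadjusted threshold, and Tek and Erg were at 0.13 ± 0.06 and -0.23 ± 0.11. Of 14 macrophage genes 13 were tested, 6 were higher at the unadjusted threshold and 0 lower, with a median of 0.25. Of the 13, 5 were above 0 in all 4 pairs, against 12.1% of all genes. The adaptor gene Tyrobp was at 0.34 ± 0.09, Aif1 at 0.27 ± 0.08, Cx3cr1 at 0.36 ± 0.12 and the complement gene C1qa at 0.29 ± 0.10. Of 12 kidney genes 2 were higher and 3 lower, with a median of -0.14. Wnt9b was at -0.60 ± 0.15, Foxd1 at 0.26 ± 0.07, Lhx1 at -0.26 ± 0.08 and Nphs1 at 0.37 ± 0.12. None of these passed limma's adjusted threshold.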

How the data were processed

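The deposited scanner files give median intensity for Cy3 and Cy5, for the spot and for background around it. Feature Extraction was version 8.5.1.1 per the submitters' processing notes and 10.7.3.1 per the file headers. The deposited series table and the scanner files hold log10 ratios of Cy5 over Cy3, not turned for the dye swap, per the file headers and a comparison of the files.

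From these, limma 3.58.1 (R 4.3.3) corrected background by normexp (offset 50) and fitted loess with control and outlier spots at weight 0. Mutant over wild-type ratios were then averaged over a probe's spots and over the arrays of a pair. A probe was kept when well above background in at least 6 of 8 channels of a genotype, and 58.3% of probes were named by RefSeq accession. Each gene is its brightest kept probe. Levels used loess and Aquantile. Ratios were tested against 0 with lmFit and eBayes, two-sided, with Benjamini-Hochberg adjustment over 16013 genes. Errors are standard errors of this fit. The steps were tested on simulated data.

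Genes and lists were chosen with earlier results of these data known. Of each list up to 4 tested genes with the smallest p are named, except any not reported here. Other genes named were chosen after their values were seen. Pairs are numbered in the labels and share arrays. Alternatives covered background, normalisation, filter, probe choice, dye, block, deposited table, sex covariate and each pair left out.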

Additional observations from a re-analysis of the deposited data

Results flagged for a closer look

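Alas2 stood apart in 1 RNA. Its level in the mutant RNA of pair 1 was 12.33, against 11.47 to 11.59 in the other mutant RNAs, and this gap made up a share of 0.866 of the range of the 4 values, above the limit of 0.829 for 4 samples. In all, 24 groups of 4 values were checked, and chance marks about 1 in 20. The wild-type RNA of pair 1 was also the highest of its genotype, at 12.07. Without pair 1 the log2 ratio of Alas2 was -0.13, against -0.04 with it.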

How the results depend on the processing

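No red cell gene was called under any of the 16 alternatives, where the smallest adjusted p was 0.267, and the range with 1 pair left out was 0 to 0 for all genes called too. All genes called numbered 42 with median centring and 39 when the 8 arrays were fitted singly with a term for dye and the pair as replicate block, against 0. The block left 0 red cell genes called. Since all means lay near 0, signs turned in 24 of 128 values. Median centring, where the median of all genes was 0.14, put the median of the red cell genes at 0.13, with Hba-a1 at 0.15, Hba-x at 0.15, Hbb-y at 0.13, Hbb-bh1 at 0.09, Alas2 at 0.13 and Epor at 0.13. With all 16 channels above background Klf1 was at 0.12, measured by its other probe, and with the median of probes Hba-a1 was at 0.06. With mutant RNA in Cy5 alone Hba-a1 was at 0.13 and Hbb-y at 0.11, and in Cy3 alone Hba-x was at 0.11 and Alas2 at 0.11. In each orientation 1 gene kept its sign in all pairs. With the Y-linked ratio as covariate Gata1 was at -0.03 and Epor at 0.02, and the embryonic chains were farther from 0, with Hbb-bh1 at -0.37, Hba-x at -0.20 and Hbb-y at -0.19 (limma adjusted p from 0.789 to 0.882), and Hba-a1 minus these chains at 0.19. Klf1 was at -0.31 in the deposited table and -0.30 from processed signals, against -0.11. With 1 pair left out the ranges were -0.08 to 0.08 for Hba-a1, -0.20 to 0.18 for Hba-x, -0.14 to 0.12 for Hbb-y, -0.31 to 0.22 for Hbb-bh1, -0.13 to 0.07 for Alas2, -0.02 to 0.12 for Gata1, -0.05 to 0.02 for Epor and -0.16 to -0.08 for Klf1. Genes with the same sign in all pairs then numbered 0 to 1, the median ran from -0.13 to 0.03, and Hba-a1 minus the embryonic chains from -0.18 to 0.30. Loess fitted without the 39 globin spots, of which 15 were among the 100 brightest, was added after the data had been seen and turned no sign. Other causes were not tested. The number of arrays limits the precision.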
